A study of Mus musculus with 16 samples.

Results

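The proneural basic helix-loop-helix (bHLH) genes Neurod1, Neurod2, Neurod4, Neurog1, Neurog2, Neurog3, Atoh1, Nhlh1 and Nhlh2 were followed across 4 conditions in P19 cells, a mouse embryonal carcinoma line that can be driven into neurons. These 9 genes were taken by name from the array's probes. The family was selected on 2 measurements of these same data, the rise of Neurod2 with let-7a and the interaction of Neurod4. These 2 comparisons are therefore described below, and nothing is read from their counts of calls. The genes had 12 probes on the array, of which 10 probes of 8 genes passed the filter on dim signals, out of 18337 genes tested in all. The cells received a control, a let-7a mimic, siSfpq (a pool of several siRNAs against Sfpq), or the mimic and siSfpq together. The concentration was 24 nM throughout and RNA was taken at 48 h. Each condition was measured on 4 arrays, whereas the methods name 3 replicates. P19 cells are 1 line, the transfections were transient, and RNA of the whole dish was labelled.

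Proneural bHLH factors are transcription factors that pair with the widely expressed E proteins, bind the E-box CANNTG and commit progenitors to the neuronal fate. Neurogenins act early and switch on the NeuroD genes and Notch ligands, while Neurod and Nhlh factors act later, in cells leaving the cell cycle. Id proteins tie up E proteins, and Hes repressors shut proneural genes off downstream of Notch. Let-7a is a microRNA that rises as stem cells differentiate, and Sfpq is a nuclear RNA-binding protein of paraspeckles.

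The mimic carried let-7a, shown here with its seed, bases 2 to 8, in capitals, because this stretch is what pairs with target messenger RNAs (RefSeq, GRCm38.p6, chr13:48538239-48538260, minus strand).
let-7a-5p: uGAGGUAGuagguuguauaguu

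All 9 genes had a promoter window in RefSeq, from 250 bases before to 50 bases after an annotated start. The letters CANNTG, which read the same on both strands, occurred in the windows of 7 of the 9 genes and in 72.3% of all 32851 windows, so that the share among the proneural genes was close to the background. The windows of 4 genes with large differences between conditions are printed with these letters in capitals, as the E-box is the element that bHLH dimers bind. They lie on chr11:98329596-98329895 for Neurod2 (minus strand), chr3:102009895-102010194 for Nhlh2 (plus strand), chr2:79456587-79456886 for Neurod1 (minus strand) and chr10:130280089-130280388 for 1 of the 2 starts of Neurod4 (minus strand).
Neurod2: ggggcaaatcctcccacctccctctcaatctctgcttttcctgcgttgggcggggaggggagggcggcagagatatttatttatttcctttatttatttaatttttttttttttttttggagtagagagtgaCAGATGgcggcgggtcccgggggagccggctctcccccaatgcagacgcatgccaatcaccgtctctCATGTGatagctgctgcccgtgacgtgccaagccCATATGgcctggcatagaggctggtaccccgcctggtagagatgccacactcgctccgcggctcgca
Nhlh2: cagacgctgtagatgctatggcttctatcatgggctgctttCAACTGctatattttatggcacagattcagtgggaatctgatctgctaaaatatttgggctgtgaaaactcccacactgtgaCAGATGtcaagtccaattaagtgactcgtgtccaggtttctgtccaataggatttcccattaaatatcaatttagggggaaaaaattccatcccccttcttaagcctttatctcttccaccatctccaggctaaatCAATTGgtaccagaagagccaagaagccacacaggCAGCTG
Neurod1: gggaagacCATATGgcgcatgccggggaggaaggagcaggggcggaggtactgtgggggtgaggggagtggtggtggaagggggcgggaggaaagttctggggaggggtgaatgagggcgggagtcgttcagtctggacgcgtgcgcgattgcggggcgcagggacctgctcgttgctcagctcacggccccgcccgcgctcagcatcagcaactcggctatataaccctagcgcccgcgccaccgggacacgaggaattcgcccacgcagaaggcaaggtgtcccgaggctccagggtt
Neurod4: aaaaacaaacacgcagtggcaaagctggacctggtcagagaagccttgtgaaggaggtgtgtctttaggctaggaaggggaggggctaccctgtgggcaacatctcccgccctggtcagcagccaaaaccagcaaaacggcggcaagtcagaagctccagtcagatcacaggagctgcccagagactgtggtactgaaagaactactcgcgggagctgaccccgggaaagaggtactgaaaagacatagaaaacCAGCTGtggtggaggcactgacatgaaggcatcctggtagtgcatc

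Neurod2 held 3 such stretches, Nhlh2 held 4, and the printed windows of Neurod1 and Neurod4 held 1 each. The form CAGATG, counted on both strands, was found in Neurod2, Nhlh1 and Nhlh2 and in 17.2% of all windows. The form CATATG was found in Neurod1 and Neurod2 and in 3.91% of all windows. The form CAGCTG was found in Neurod4, Neurog3 and Nhlh2 and in 16.3% of all windows. The other start of Neurod4 and the windows of Neurog2 and Atoh1 held no CANNTG. These matches are letters in a window and were not measured as bound sites.

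Levels are given as log2 of the background-subtracted intensity after quantile normalization, and levels of different genes cannot be set against each other on this array. Arrays 1 and 2 of a condition differed by a robust spread (scaled median absolute difference between probe values) of 0.0486 to 0.0651. Spots of 1 probe on 1 array had a median standard deviation of 0.0559 to 0.0659, a different statistic of similar size. Arrays 1 and 2 were therefore averaged into 1 sample, which left 3 samples per condition, named 1 and 2, 3, and 4. Sfpq itself differed between siSfpq and control by -1.51, -0.51 and -1.37 log2 units in these samples, so that the knockdown was smallest in sample 3 (limma log2 difference -1.13 ± 0.19 standard error, adjusted p = 0.00745). With both, Sfpq was at -0.61 against control (± 0.19, adjusted p = 0.184), at -0.57 against let-7a (adjusted p = 0.145) and at 0.53 against siSfpq (adjusted p = 0.1), with differences from siSfpq of 0.76, 0.03 and 0.79 in the samples. Lin28a, a classical let-7 target, fell with let-7a by 0.77 log2 units (adjusted p = 0.00245). Embryonal carcinoma markers were present, with Pou5f1, Nanog and Sox2 tested and 9 of 10 markers passing the filter, while Zfp42 was well above background on 1 of 16 arrays. With siSfpq, Utf1 (0.78, adjusted p = 0.0199) and Esrrb (0.88, adjusted p = 0.046) rose and Sox2 fell by 0.72 (adjusted p = 0.0276), and with both against siSfpq Nanog fell by 0.65 (adjusted p = 0.00609) and Lin28a by 0.64 (adjusted p = 0.00937). Whether the replicates were separate cultures is not stated in the labels, and p-values measure only the spread between these samples.

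**Figure D1:**
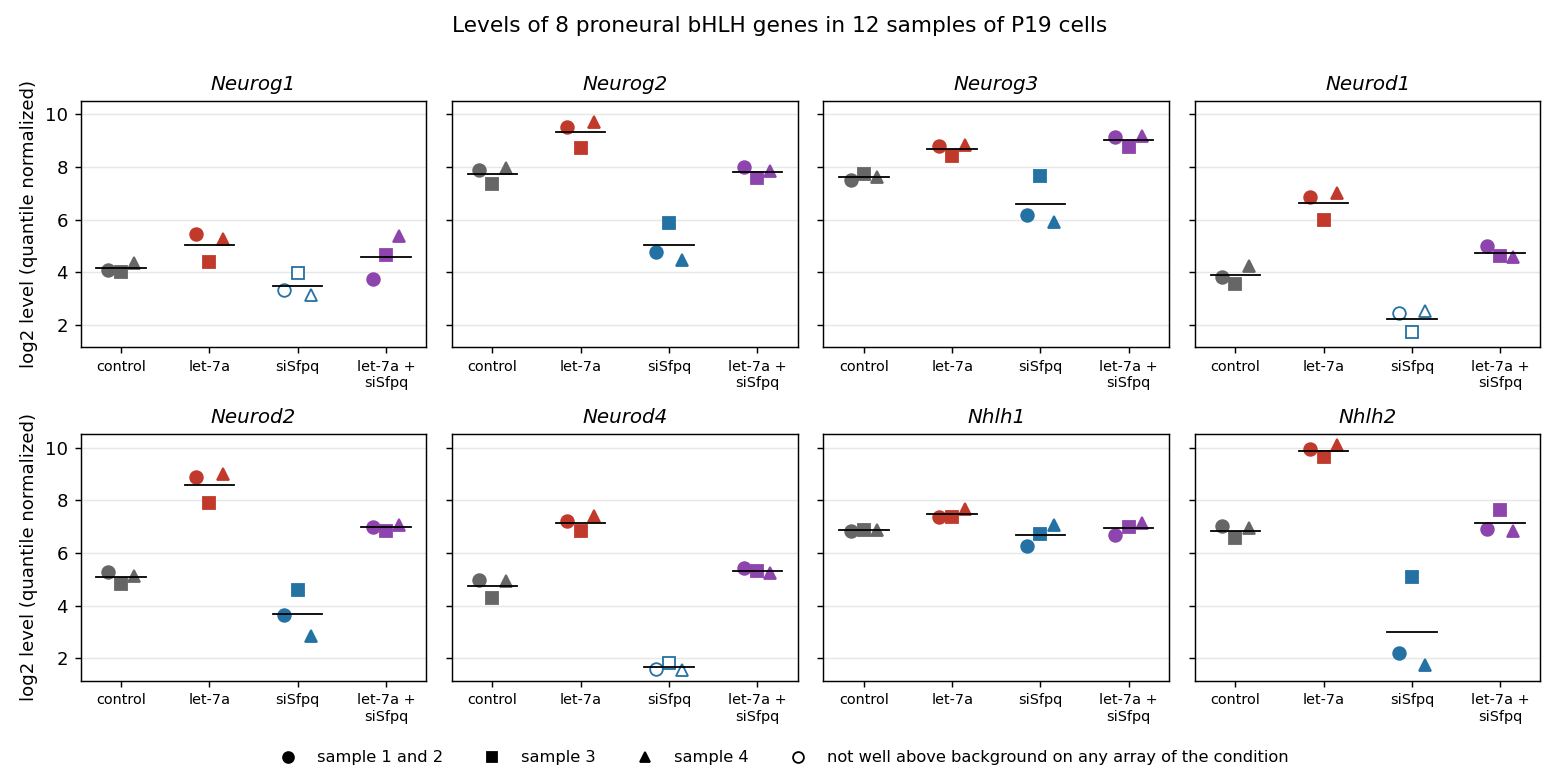
Log2 level of each of the 8 proneural bHLH genes that passed the filter (vertical axis) in the 4 conditions (horizontal axis), 1 point per sample with its shape for the sample number and a line at the mean of 3 samples. Open points mark conditions in which no array was well above background. For 7 genes the mean was highest with let-7a, whereas Neurog3 was highest with both.

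The neurogenins act first in the pathway. Neurog2, which drives neurogenesis in the cortex and spinal cord, was at 7.87, 7.36 and 7.96 in control and at 9.54, 8.73 and 9.71 with let-7a. It was at 4.79, 5.86 and 4.47 with siSfpq and at 8.01, 7.60 and 7.85 with both. The siSfpq samples lay below all others, and the samples with both overlapped the controls. Neurog3, the endocrine pancreas factor of the family that is also active in the hypothalamus and spinal cord, was at 7.52, 7.74 and 7.63 in control, 8.80, 8.41 and 8.85 with let-7a, and 6.18, 7.67 and 5.90 under siSfpq. With both it was at 9.13, 8.75 and 9.18. Samples with both therefore overlapped those with let-7a alone, and siSfpq sample 3 lay within the control range. Neurog1, which acts in sensory neurons, was dim, at 4.09, 4.03 and 4.37 in control, 5.47, 4.39 and 5.28 with let-7a, 3.32, 3.97 and 3.15 under siSfpq, and 3.76, 4.64 and 5.38 with both. It passed the filter on its let-7a arrays alone and was not well above background on any siSfpq array, so that the order of its siSfpq values is not measured.

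The NeuroD genes showed wide differences. Neurod2, a cortical neuron differentiation factor, was at 5.27, 4.81 and 5.14 in control and at 8.90, 7.90 and 9.02 with let-7a. With siSfpq it was at 3.67, 4.59 and 2.85, and with both between 6.86 and 7.08. As samples no 2 conditions overlapped, but siSfpq array 2 on its own read above every control array. On the siSfpq arrays Neurod2 was well above background on 2 of 4 only, and arrays 1 and 2, counted as 1 sample, read 1.51 and 5.82. Neurod4, which acts with other proneural factors in retina and neural tube, was at 4.98, 4.31 and 4.95 in control, 7.23, 6.85 and 7.40 with let-7a, and 5.43, 5.31 and 5.25 with both. On siSfpq arrays its probe read 1.58, 1.82 and 1.58, none of them well above background, which gives only a bound there. Neurod1, the NeuroD gene of endocrine cells and many neurons, was at 3.83, 3.55 and 4.26 in control, 6.88, 5.98 and 7.02 with let-7a, and 5.02, 4.64 and 4.57 with both, the conditions through which it passed the filter. Its siSfpq values of 2.45, 1.75 and 2.51 came from arrays on which it was not well above background.

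Nhlh2, a factor of developing neurons of the hypothalamus, spanned the widest range. It was at 7.04, 6.58 and 6.94 in control, 9.94, 9.65 and 10.10 with let-7a, 2.20, 5.10 and 1.75 under siSfpq, and 6.92, 7.65 and 6.83 with both. Of the siSfpq arrays, replicate 3 alone was well above background. Nhlh1, expressed in newborn neurons, was at 6.84, 6.87 and 6.89 in control, 7.37, 7.37 and 7.69 with let-7a, 6.29, 6.72 and 7.08 under siSfpq, and 6.70, 6.99 and 7.15 with both. Averaged over 2 probes that disagree, its means moved least of the 8 genes in this processing, and siSfpq, control and both overlapped. Atoh1, the factor of hair cells and cerebellar granule neurons, was well above background on 1 of 16 arrays, with both, and was not tested.

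The description of let-7a against control, the comparison that selected Neurod2, is as follows. All 8 genes had every let-7a sample above every control, as had 15.7% of all genes, with 5 of 8 past an adjusted p of 0.05, where 4.89% of all genes were higher and 2.01% lower by that rule. From these counts nothing is read, as the family was selected on it. The mean differences were 3.53 log2 units for Neurod2, 3.04 for Nhlh2, 2.75 for Neurod1, 2.41 for Neurod4, 1.60 for Neurog2, 1.06 for Neurog3, 0.88 for Neurog1 and 0.61 for Nhlh1. With normexp they were 2.33 for Neurod2, 2.49 for Nhlh2, 1.01 for Neurod1, 1.26 for Neurod4, 1.36 for Neurog2, 0.85 for Neurog3, 0.25 for Neurog1 and 0.39 for Nhlh1, so that their order depends on the background correction, and 1 of the 2 probes of Neurod1 was not well above background on any control array.

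Against control, siSfpq lowered part of the family. Neurog2 fell by 2.69 log2 units (± 0.35 standard error, adjusted p = 0.00461, limma) and Nhlh2 by 3.84 (± 0.66, adjusted p = 0.00769). They were well above background on 3 and 1 of the 4 siSfpq arrays, so that no exact fold is given. For Neurog2 the exception was siSfpq array 4, which is the whole of sample 4 and gave its largest fall. With normexp background correction Neurog2 was at -1.51 and Nhlh2 at -1.26 (adjusted p = 0.00738 for each), and with only the groups compared in the fit neither passed (adjusted p = 0.053 and 0.0656). Over the 8 genes tested, 5 were called lower and none higher, against 7.33% of all genes lower and 6.33% higher. Neurod4, selected on all 4 conditions, is 1 of these and is given as a bound only. Its control mean set against the dimmest well-detected signal of each siSfpq array made it at least 1.59-fold lower with siSfpq. Of the 7 others, 4 were called lower. In such bulk samples, fewer cells that express a gene and less RNA of it per cell cannot be told apart.

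Neurod1 and Neurod2 also passed this test, with differences of -1.64 ± 0.33 (adjusted p = 0.0134) and -1.38 ± 0.40 (adjusted p = 0.0427), but both rested on values under the background, and the control arrays are those on which Neurod2 was selected. With every value below an array's dimmest well-detected probe set to that signal, an alternative chosen after seeing the data, the difference was -0.08 for Neurod1 (adjusted p = 0.89) and -0.43 for Neurod2 (adjusted p = 0.349), and 2 of the 8 genes were called lower. Neurog2 at -2.69 and Nhlh2 at -2.31 were the ones called then (adjusted p = 0.00427 for each). For Neurod1 no fold could be given, as its control level was below that signal.

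Neurog3 did not pass in this comparison (-1.05 ± 0.36, adjusted p = 0.0738), with its siSfpq sample 3 among the controls. It passed with the replicate number as a block (adjusted p = 0.0446). Neurog1 (-0.68 ± 0.42, adjusted p = 0.295) and Nhlh1 (-0.17 ± 0.21, adjusted p = 0.622) did not pass. Neurog2 had its smallest fall in sample 3, with log2 differences of -3.08, -1.50 and -3.49.

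**Figure D2:**
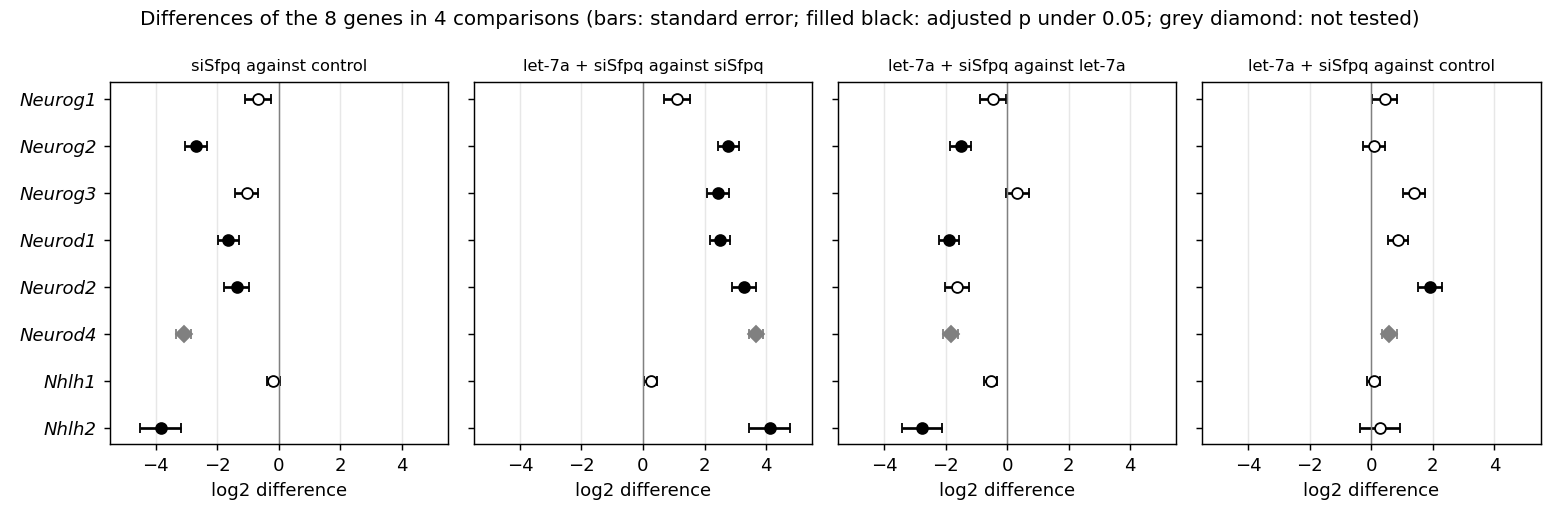
Log2 difference of the 8 genes (rows) in 4 comparisons (panels), with the standard error of the limma fit over 12 samples as bars. Filled black points passed an adjusted p of 0.05, open points did not, and the grey diamond of Neurod4 is a description. With both against siSfpq, Neurod2, Neurog2, Neurog3 and Nhlh2 were called higher, while Sfpq was also at 0.53. The filled point of Neurod1 is set against siSfpq values below background, and those of Neurod2, Neurog2 and Nhlh2 are so in part.

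Whether let-7a also raised these genes when Sfpq was knocked down was asked by comparing both with siSfpq alone, on arrays that the selection of Neurod2 did not use. The mean of Sfpq was 0.53 log2 units higher with both than with siSfpq, so that the arms differ in it as well as in let-7a, and its part was not tested. Nhlh2 rose by 4.11 log2 units (± 0.66, adjusted p = 0.00604), Neurod2 by 3.28 (± 0.40, adjusted p = 0.00169), Neurog2 by 2.78 (± 0.35, adjusted p = 0.00196) and Neurog3 by 2.44 (± 0.36, 5.42-fold, adjusted p = 0.00438). With Neurod1 these were 5 of the 7 genes other than Neurod4, and none fell. Neurod1 (2.50 ± 0.33, adjusted p = 0.00271) passed the filter through its bright conditions and was not well above background on any siSfpq array, so that its call adds no support and 4 genes are left. Of these, Neurod2, Nhlh2 and Neurog2 also passed the filter through other conditions. They were well above background on 2, 1 and 3 of the 4 siSfpq arrays, so that their differences rest in part on values below background. Over all genes 6.18% rose and 4.13% fell.

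Neurod4 was at least 2.38-fold higher with both than with siSfpq, counted against the same signal bound, and is left untested. Neurod1 was at least 1.58-fold higher by that bound, and with values below the dimmest detected signal set to it, its difference shrank to 0.66 (adjusted p = 0.152). Neurod2 and Nhlh2, well above background on 2 and 1 of the 4 siSfpq arrays, were at 2.34 (adjusted p = 0.00176) and 2.59 (adjusted p = 0.000908) in that alternative. With normexp the differences were 1.44 for Nhlh2, 1.29 for Neurod2, 1.57 for Neurog2 and 1.83 for Neurog3, all past the threshold. With only the groups compared in the fit, Nhlh2 (adjusted p = 0.0708) and Neurog3 (adjusted p = 0.0559) were not called, and without the filter, which adds the undetected probe of Neurog3 to its mean, Neurog3 was at 1.21. Neurog1 (1.11 ± 0.42, adjusted p = 0.106) and Nhlh1 (0.25 ± 0.21, adjusted p = 0.47) did not pass.

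Adding siSfpq to let-7a lowered 3 genes of the family, with Sfpq itself at -0.57. Nhlh2 fell by 2.77 log2 units (± 0.66, adjusted p = 0.0459), Neurod1 by 1.89 (± 0.33, adjusted p = 0.0153) and Neurog2 by 1.51 (± 0.35, adjusted p = 0.0419). These were 3 of the 7 genes besides Neurod4, which was 1.83 log2 units lower, against 2.17% of all genes lower and 0.96% higher. With normexp Nhlh2 was at -2.31, Neurod1 at -0.83 and Neurog2 at -1.30, all past the threshold. Neurod2 (-1.62 ± 0.40, adjusted p = 0.0522) and Nhlh1 (-0.53 ± 0.21, adjusted p = 0.21) missed the threshold and passed it with the replicate number as a block (adjusted p = 0.029 and 0.0305). Neurog3 stood apart in sign, at 0.33 ± 0.36 (adjusted p = 0.76), with differences of 0.33, 0.33 and 0.33 in the 3 samples. This comparison shares its let-7a arrays with the one that selected Neurod2, and the call of Nhlh2 was lost without replicate 2 (adjusted p = 0.0562) and with the slide as a block (adjusted p = 0.0518). Without the filter on dim probes the calls of Nhlh2 (adjusted p = 0.106) and Neurog2 (adjusted p = 0.0929) were lost.

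In cells with both, Neurod1, Neurod2 and Neurog3, 3 of the 7 genes other than Neurod4, had every sample above every control. Of all genes, 11% had. Neurod4 also had, but was selected on all 4 conditions and is not counted, and the other 4 genes overlapped the controls. Of the 2 probes of Neurod1, 1 was not well above background on any control array. Neurod2 was 1.90 log2 units higher than in control (± 0.40, 3.74-fold, adjusted p = 0.0409), with differences of 1.73, 2.04 and 1.94 in the samples, and was the 1 gene of 8 called, where 1.29% of all genes were higher and 0.229% lower. This comparison shares its control arrays with the one that selected Neurod2, and with normexp the difference was 1.02 (adjusted p = 0.046). The call was lost without the filter on dim probes (adjusted p = 0.0995), with 16 arrays counted separately (adjusted p = 0.0906), without replicate 1 (adjusted p = 0.127) and without replicate 2 (adjusted p = 0.231). Neurog3 was 1.39 higher (± 0.36, 2.62-fold) at an adjusted p of 0.0966, and passed with the replicate number as a block (adjusted p = 0.0446). The differences of Neurog2 (0.09 ± 0.35), Nhlh1 (0.08 ± 0.21), Nhlh2 (0.28 ± 0.66) and Neurog1 (0.43 ± 0.42) were within the overlap of the samples. Neurod1 (0.86 ± 0.33, adjusted p = 0.309) did not pass, and Neurod4 was 0.58 higher.

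**Figure D3:**
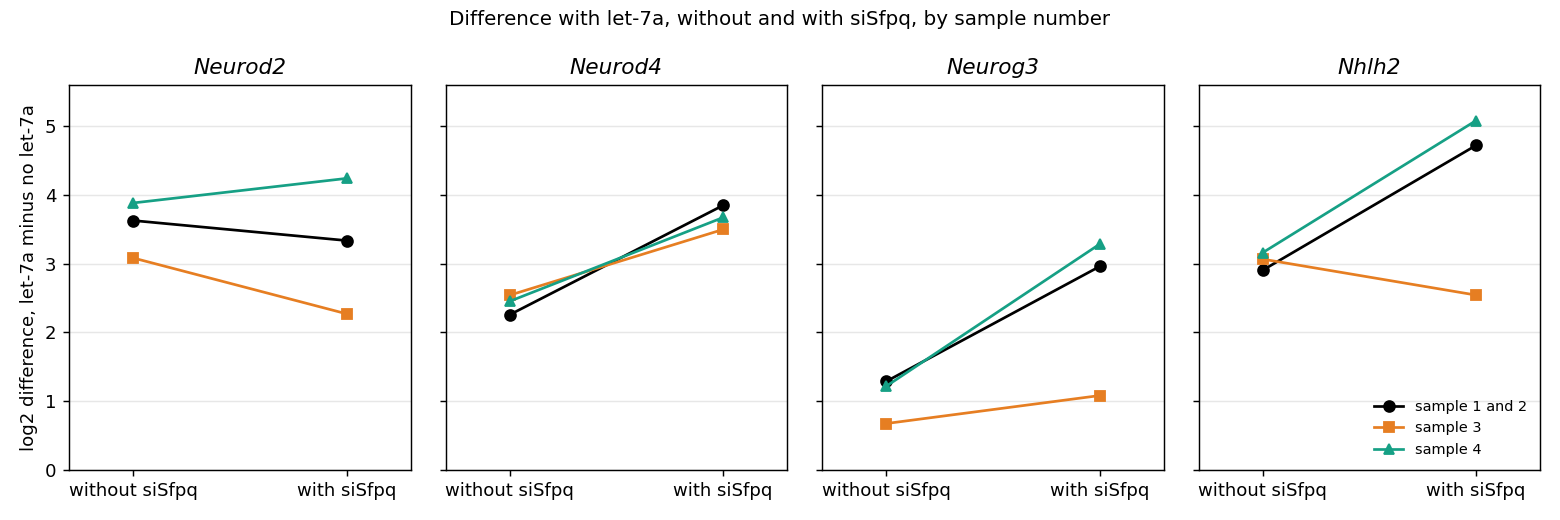
Log2 difference with let-7a for 4 genes (panels), without siSfpq (let-7a minus control) and with siSfpq (both minus siSfpq alone), 1 line per sample number. Neurod4 and Neurog3 had the larger difference with siSfpq in all 3 samples, but that of Neurod4 with siSfpq is set against values below background.

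The interaction asks whether the difference with let-7a was larger or smaller with siSfpq, and it is the comparison that selected Neurod4. Of all genes 0% were called (limma, with 1159 at an unadjusted p under 0.05), and so were none of the 8. Neurod4 gave 1.59, 0.96 and 1.22 log2 units in the 3 samples (mean 1.26). Since its siSfpq values were all below background, its sign was not fixed by the data, and with values below the dimmest detected signal set to it the mean was -1.16. It was also negative with normexp background correction (-0.52) and in the authors' normalized values (-0.45). Nhlh2 (1.07 to -0.45) and Neurog1 (0.23 to -0.43) changed sign in the same way with dim values set to that signal. Neurog3 (mean 1.38, samples 1.67, 0.41 and 2.07) and Neurog2 (mean 1.18, samples 1.55, 0.37 and 1.62) were positive in every sample and did not move with that choice, and both were smallest in sample 3. With normexp the means were 0.98 for Neurog3 and 0.21 for Neurog2. Neurod2 gave -0.29, -0.81 and 0.36, with no common sign. Without replicate 3 in every condition, 4 of the 8 genes were past an adjusted p of 0.05 in this comparison, as were 4089 of all 18337 genes. From this nothing is read, as the comparison served the selection.

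Probes of 1 gene disagreed for Nhlh1. Its probe A_55_P2140612 (mm9, chr1:173982907-173982966) was 1.37 log2 units higher with let-7a than in control and 1.16 lower with both than with let-7a, with 3 let-7a arrays between 7.93 and 8.13 and the third replicate at 7.45. Its other probe A_55_P2058646 (chr1:173987638-173987697), named by the same RefSeq accession, differed by -0.16 and 0.10 in these comparisons. The mean of both, used above, thus understates the first probe and overstates the second. The 2 probes of Neurod1 (chr2:79293621-79293680 and chr2:79294309-79294368) moved in the same direction. They differed by 3.15 and 2.34 with let-7a against control, and by 2.59 and 2.42 for both against siSfpq. Neither was well above background on any siSfpq array, nor was the first on any control array. Neurod2 was read at chr11:98187943-98188002 and Neurod4 at chr10:129706046-129706105. Of the 2 probes of Neurog3, that at chr10:61597452-61597511 gave the values above, and that at chr10:61596051-61596110, named from the file alone, was not well above background on any array. An annotation of mm9 was not used here, so that exons and untranslated regions under the probes are not given.

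**Figure D4:**
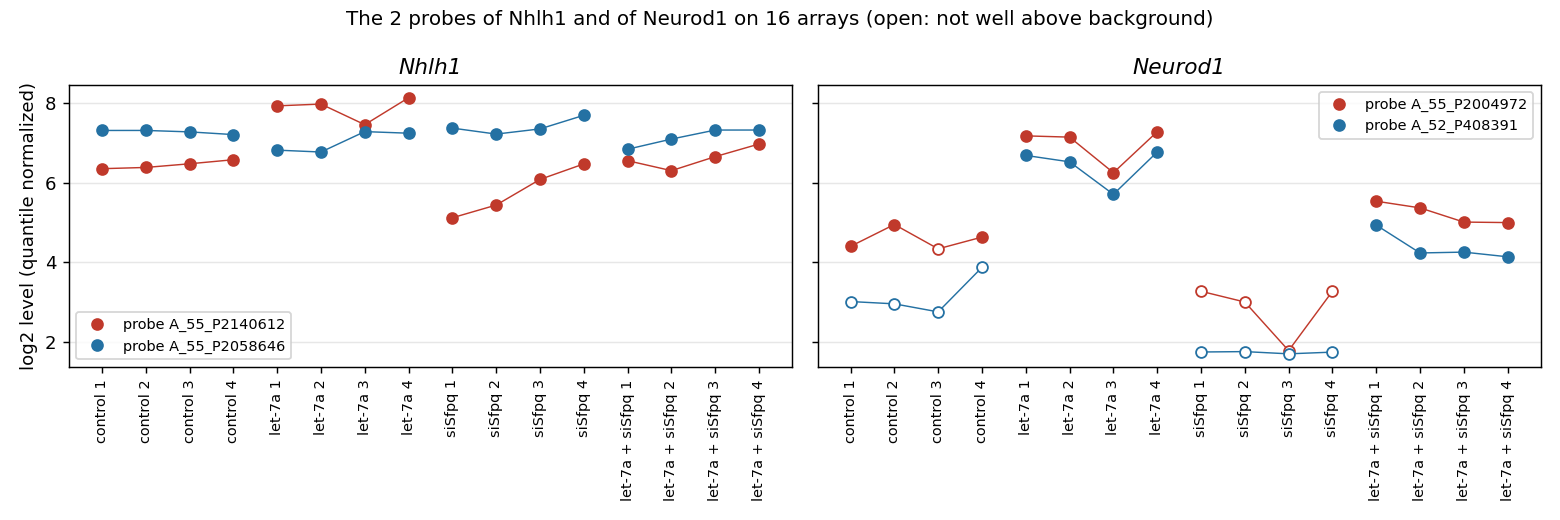
Log2 level of the 2 probes of Nhlh1 (left) and of Neurod1 (right) on each of the 16 arrays, with open points where a probe was not well above background. In Nhlh1, probe A_55_P2140612 lay between 7.45 and 8.13 with let-7a while A_55_P2058646 stayed between 6.77 and 7.69 on all arrays, and in Neurod1 both probes moved together.

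Over the 12 samples the levels of the 8 genes moved together, with a Pearson r from 0.501 (Neurog3 with Nhlh1) to 0.979 (Neurod4 with Neurog2), given as a description of samples that share 4 conditions. The genes most like Neurod2 in level were Cavin2, a caveola protein (r = 0.993), Doc2b, a calcium sensor of vesicle release (r = 0.991), and Mia (r = 0.985). Those most like Neurod4 were 2510009E07Rik (r = 0.99), Gfra2, a neurotrophic factor receptor (r = 0.989), and Plxna4, a semaphorin receptor (r = 0.987).

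Partners and repressors of the family are read against 7.33% of all genes lower and 6.33% higher with siSfpq, and 6.18% higher and 4.13% lower with both against siSfpq. Of the 3 E proteins, Tcf3 fell with siSfpq by 0.45 log2 units (adjusted p = 0.0234) and Tcf12 was at 0.02 and Tcf4 at -0.59 without passing, while none was called with both against siSfpq. None of the 4 Id proteins was called in either comparison, with Id1 at 0.27 and -0.02. None of the 6 Hes and Hey genes tested was called, with Hes5 at -0.79 and 0.36. Hes1, the main Notch effector, was well above background on all arrays but had no value left on 1 array after outlier spots were removed, and was not tested. Of 7 repressors of neuronal genes none was called with siSfpq. With both against siSfpq, Ctdspl, a phosphatase that works with REST, rose by 0.71 (adjusted p = 0.0281) and the corepressor Sin3a fell by 0.37 (adjusted p = 0.045), while Rest itself was at -0.31 (adjusted p = 0.269).

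Targets of the proneural factors and early neuronal genes were read as a list of 26. The list was chosen with earlier results of these data known, so that its counts and medians are a description and not a test of it. With siSfpq 13 fell and none rose, with a median of -0.86 log2 units against 0.01 over all genes, of which 7.33% fell. With both against siSfpq 16 rose and none fell, with a median of 1.13 against -0.02 over all genes, of which 6.18% rose. Among the 16 is Myt1 (1.73, adjusted p = 0.0182), which was not well above background on any siSfpq array and passed the filter through its bright conditions, so that its call adds no support. Ebf2 and Cntn2 were well above background on 2 of 4 siSfpq arrays, so that their differences rest in part on values below background. Ebf2, an early NeuroD and neurogenin target, fell by 3.11 (adjusted p = 0.00461) and rose by 3.30 (adjusted p = 0.00213). Cntn2, an axonal adhesion molecule, fell by 2.06 (adjusted p = 0.013) and rose by 1.92 (adjusted p = 0.0199). Mfng, a modifier of Notch, fell by 1.60 (adjusted p = 0.0166), and Ebf3 rose by 1.83 (adjusted p = 0.019). The Notch ligand Dll1 was at 0.50 and -0.51 without passing (adjusted p = 0.115 and 0.121), and Hes6, which works with proneural factors, rose by 0.53 with both against siSfpq (adjusted p = 0.0336) and was at -0.38 with siSfpq (adjusted p = 0.0782). Both comparisons share the siSfpq samples.

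**Figure D5:**
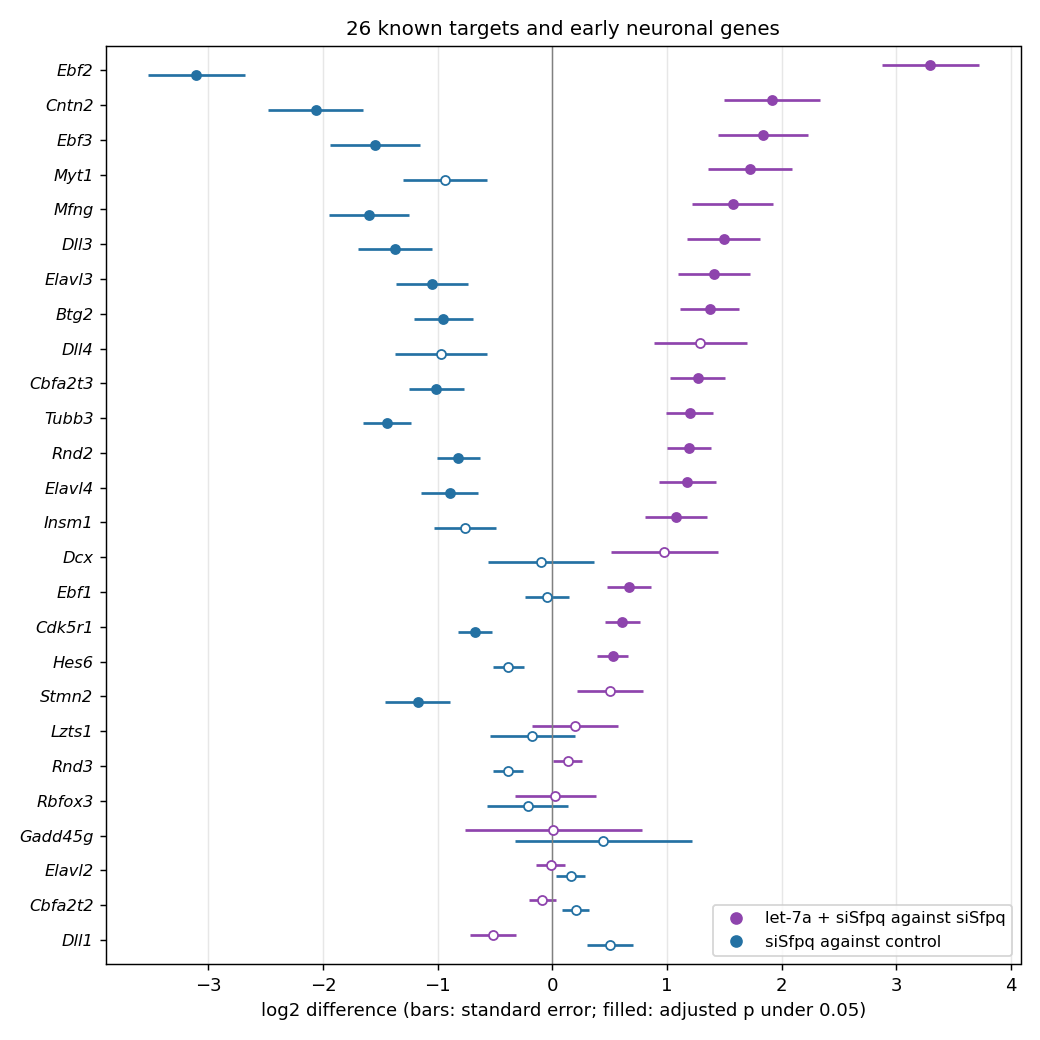
Log2 difference of 26 known targets and early neuronal genes (rows, ordered by the difference for both against siSfpq), with standard errors as bars and filled points where the adjusted p was under 0.05. On these arrays 16 genes rose with both against siSfpq and 13 fell with siSfpq against control, in a list chosen with earlier results of these data known.

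The following marker counts stand against the same shares over all genes. Of 8 neuron markers, 4 of which (Dcx, Rbfox3, Stmn2 and Tubb3) are also among the 26 targets, 3 fell with siSfpq and 2 rose with both against siSfpq, and their summed level on the log2 scale ranged over 15.33 to 15.51 in control, 15.64 to 15.99 with let-7a, 14.48 to 14.98 under siSfpq, and 15.03 to 15.15 with both. Tubb3, a neuronal tubulin, fell by 1.44 (adjusted p = 0.00555) and rose by 1.20 (adjusted p = 0.0088). Of the 8 mesendoderm markers 6 were tested, and Sox17 was not detected on any array. With siSfpq 1 of them rose, T, by 1.91 (adjusted p = 0.0105), and with both against siSfpq 2 fell, T by 2.39 (adjusted p = 0.0048) and Gsc by 0.997 (adjusted p = 0.0111), while Gata6 was at 0.94 (adjusted p = 0.126). Their summed log2 levels were 10.66 to 11.08 in control, 9.55 to 9.89 with let-7a, 11.84 to 12.80 under siSfpq, and 10.13 to 11.17 with both. Glia markers (6 of 7 tested) had 1 fall with siSfpq, that of Mbp, and none rose. Fibroblast and blood markers (4 of 6 tested) had 2 rises with both against siSfpq, those of Col1a2 and Pdgfrb, and the blood gene Hbb-b1 was not detected on any array. The part of these markers in the results above was not tested.

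All calls of the family rested on few samples. Without replicate 4 in every condition, or without replicates 1 and 2 together, none of the 8 genes was called in any comparison, and between 0 and 3 of all 18337 genes were. These fits hold 2 samples per condition, and the difference of Neurog2 between siSfpq and control was -2.29 and -2.49 in them. Without replicate 3, also with 2 samples per condition, 9020 of all genes were called in siSfpq against control and 8632 in both against siSfpq. Replicate 3 differed from the other arrays of its condition by a robust spread of 0.21 to 0.37. Between replicate 4 and replicates 1 or 2 it was 0.10 to 0.15, so that the calls depend on the spread of replicate 3.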

How the data were processed

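P19 messenger RNA was measured on 16 Agilent arrays of 1 colour (Cy3), 4 per condition, with 59305 spots each and 33733 to 38464 of them well above background. The number of arrays limits the precision. The authors deposited the scanner intensities (Agilent Feature Extraction 10.7.3.1), background-subtracted with low values replaced by surrogates. A table of log2 levels after quantile normalization with limma also came from the authors. It was used as an alternative, and its column medians lie between 6.23 and 6.24. It correlated with the values used here at r of 0.977 to 0.978, and whether a background had been subtracted in it is not stated.

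Here quantile normalization was applied to log2 processed intensities of all arrays (limma 3.58.1, R 4.3.3). Outlier spots were left out, spots of a probe and then probes of a gene were averaged, and probes had to be well above background on all 4 arrays of a condition. A missing value removed 39 probes. Names came from RefSeq accessions, otherwise from the file. 12 samples were fitted in 1 limma model with a trend, and p-values (two-sided) were adjusted by Benjamini-Hochberg over 18337 genes. A bound sets the brighter mean against the dimmest well-detected signal of each array. The smallest exact permutation p for 3 against 3 is 0.1. Same-numbered samples deviated together (r from 0.284 to 0.708 over 18 pairs), so that numbers pair the samples. The reported fit did not use this pairing, so that a gene said not to pass failed in a fit without it. Calls added with the number as a block are given as an alternative. Named genes were the 9 members, at most 3 called genes per list and direction, Tcf3, Tcf4, Tcf12, Id1, Hes1, Hes5, Hes6, Dll1 and Rest, Sfpq and Lin28a, and 3 genes most correlated with Neurod2 and Neurod4. One gene under this rule, and its list, are not reported here. Members and lists were chosen with earlier results of these data known. The alternatives tried are given with their effect under the processing.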

Additional observations from a re-analysis of the deposited data

How the results depend on the processing

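Counts out of 8 genes are given in the order siSfpq against control, both against siSfpq, both against let-7a, both against control, let-7a against control and the interaction, with 5, 6, 4, 1, 5 and 0 called as reported. Leaving out single replicates gave 0 to 6, 0 to 7, 0 to 5, 0 to 2, 0 to 6 and 0 to 4, and 0 to 21 of the 26 targets for both against siSfpq, where 16 were called as reported. Over all 18337 genes, 9020, 8632, 4892, 3333, 5510 and 4089 were called without replicate 3. Without replicate 4 the count was 0 in each comparison but let-7a against control, where it was 2, so that calls over all genes moved as well. Without replicates 1 and 2 together all counts of the 8 genes and of the targets were 0. In the remaining settings, counts that moved by over 1.5 times were as follows. With siSfpq against control, 3 were called with normexp, 3 with the authors' values, 2 with dim values set to the detection signal, and 0 with only the groups compared or the stricter filter, which only Neurog3 and Nhlh1 passed. With both against siSfpq 1, and with let-7a against control 0, were called under the stricter filter. With both against let-7a, 2 were called without a filter, 2 without a trend and 0 under the stricter filter. With both against control, 2 were called with normexp, the replicate block, 16 arrays counted separately or only the groups compared. Over all 18337 genes these settings called 275, 1493, 1437 and 301. With 16 arrays and the replicate block 3 were called (4179 of all genes), and 0 without a filter or with the stricter one. In the interaction, 1 was called with 16 arrays counted separately (181 of all 18337 genes) and 3 with the replicate block added (2716 of all genes). Without siSfpq replicate 3, 2 were called with both against control (721 of all genes) and 4 in the interaction (1383 of all genes). Of the 26 targets, 7 were called with only the groups compared.

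The pairing by replicate number as a block added the calls named with their values in the report, and changed no other call in the 4 tested comparisons. It gave 6, 6, 6, 2, 6 and 0 calls of the 8 genes. Over all 18337 genes it called 6927, 6111, 2415, 1493, 3993 and 4, against 2504, 1890, 573, 278, 1265 and 0 as reported, so that calls rose over all genes too.

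In the 4 tested comparisons signs turned in 3 genes. Nhlh1, by its brightest probe or with each probe fitted on its own, was at 0.18 (siSfpq against control), -0.24 (both against siSfpq), 0.10 (both against let-7a) and -0.061 (both against control). With single replicates left out, both against control ranged from -0.0144 to 0.0774 for Nhlh1 and from -0.116 to 0.471 for Nhlh2, and Nhlh1 was at 0.0152 without replicates 1 and 2 together (siSfpq against control). Neurog1 was at 0.18 without replicates 1 and 2 together (both against let-7a) and at 0.00097 with dim values set to the detection signal (siSfpq against control). The cause of these changes was not tested. Signal over background limits Neurod1, Neurod4 and Neurog1 in siSfpq cells to bounds. It leaves Neurog2, Neurod2 and Nhlh2 measured on 3, 2 and 1 of 4 siSfpq arrays.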
